A study of Mus musculus with 15 samples.

Results

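The genes examined were 10 genes of glycolysis in the mouse testis, of 23510 gene IDs in the table. Their rows were taken by Entrez Gene ID, matched to the RefSeq symbols Gapdhs, Gapdh, Ldhc, Ldha, Pgk1, Pgk2, Eno4, Aldoart1, Pgam2 and Hk1. All 10 were found and all 10 passed the filter for testing, which kept 14514 genes with a mean of at least 1 FPKM (fragments per kilobase of transcript, scaled to the mapped fragments of each library). The rule lists the genes by name and uses no measured value, although the list was drawn up with earlier results of these data known. The label "sperm-specific" fits part of the set, since Gapdh, Ldha and Pgk1 are the isozymes of ordinary tissues, Pgam2 is the isozyme of muscle, and Hk1 is used by many tissues.

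The study examined the part of the muscarinic receptor M5 in spermatogenesis, with the related receptors M1 and M3 knocked down for comparison. RNA was measured in 15 testis libraries of ICR mice in 5 groups of 3. Per the study's methods, 5-week-old males received lentivirus into the testes and were examined 10 days later. MNC carried the vector control, and M1, M3 and M5 carried a mix of 3 short hairpin RNAs against Chrm1, Chrm3 or Chrm5. The promoter and the cells that took up the virus are not given in the sources used here. Con is labelled as control only, and its age and handling are not given. The 4 groups MNC, M1, M3 and M5 all received virus, and their 12 libraries are called injected below. Nothing in the labels ties the 3 libraries of a group to separate animals, so p-values measure the spread among these libraries, which may be technical.

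Sperm make much of their ATP by glycolysis along the tail, where several of the enzymes are bound to the fibrous sheath. In spermatogenesis many somatic glycolytic enzymes are joined or replaced by isozymes that only germ cells make. Several of these genes are retrogenes, which are intronless copies of a parent gene, and Pgk2 is the classic example, standing in for the X-linked Pgk1 when the X chromosome is silenced in meiosis. Ldhc is switched on in meiosis, whereas Gapdhs belongs to the haploid spermatid. In bulk testis RNA, fewer cells of a type and less RNA per cell cannot be told apart.

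The isozyme pairs differ in how well reads can be assigned to them, so a stretch of coding sequence is shown for a distant and for a close pair. Each stretch is the 60 aligned bases without gaps at which the pair differed most, so the rest of the coding sequence is more alike. Sequences are 5′ to 3′ from the GENCODE M21 transcripts (GRCm38), and capitals mark the bases at which the pair differs. Pgk2 (chr17:40207018-40208609) and Pgk1 (chrX:106187100-106203699) were identical at 79.3% of 1254 aligned coding bases, with no identical run longer than 22 bases. Their first 60 coding bases differed at 20 positions.
Pgk2: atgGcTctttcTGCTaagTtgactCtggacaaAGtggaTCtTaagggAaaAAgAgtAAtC
Pgk1: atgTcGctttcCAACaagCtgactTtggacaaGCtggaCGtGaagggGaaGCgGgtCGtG

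Aldoart1 (chr4:72850583-72852634), a retrogene of aldolase A, was identical to Aldoa at 93.9% of 1257 aligned coding bases, with a longest identical run of 86 bases. The 60 bases shown, coding bases 148 to 207 of Aldoart1 and 145 to 204 of Aldoa, differed at 9 positions.
Aldoart1: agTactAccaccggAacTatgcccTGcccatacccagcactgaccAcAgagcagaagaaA
Aldoa: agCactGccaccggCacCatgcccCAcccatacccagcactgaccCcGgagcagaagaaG

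Identity was 68.8% for Gapdhs and Gapdh, 73.3% for Ldhc and Ldha, and 52.9% for Eno4 and Eno1 over their aligned coding bases. Aldoart2, another aldolase retrogene, was identical to Aldoa at 91.6% (longest run 49 bases) and to Aldoart1 at 89.0% (longest run 54 bases). How reads that match more than 1 gene were assigned is not given in the sources used here. The levels of Aldoart1, Aldoart2 and Aldoa are therefore uncertain, as are those of Gapdh, Pgk1, Ldha and Eno1, which have processed copies in the genome.

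Ldhc (chr7:46861263-46878147) and Ldha (chr7:46842274-46855627) lie side by side on the same strand. The 150 bases before a start site of each are shown because they are the members whose upstream sequence held a cAMP response element, the motif bound by CREM, or its shorter form. The sequences are from RefSeq on GRCm38.p6, plus strand, chr7:46861113-46861262 for Ldhc and chr7:46845654-46845803 for Ldha. Capitals mark, on either strand, the full element TGACGTCA with its shorter form TGACG, as well as the TATA motif TATAA and the GC box motif GGGCGG.
Ldhc: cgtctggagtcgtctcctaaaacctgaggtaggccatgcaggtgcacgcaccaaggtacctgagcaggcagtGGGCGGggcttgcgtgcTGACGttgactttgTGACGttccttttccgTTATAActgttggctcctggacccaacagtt
Ldha: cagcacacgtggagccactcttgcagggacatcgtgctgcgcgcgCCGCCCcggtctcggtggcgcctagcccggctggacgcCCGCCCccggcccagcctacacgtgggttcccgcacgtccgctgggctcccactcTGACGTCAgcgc

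The full element TGACGTCA, which contains TGACG, was found for 1 of the 9 members with an entry in the promoter table (all but Aldoart1), Ldha, in the 250 bases before its start sites. TGACG was found for 2 members, Ldhc and Ldha, TATAA for 1, Ldhc, and GGGCGG for 3, Ldhc, Ldha and Pgk1. Counted by start site, of which the 9 members had 13, the matches were 1 for TGACGTCA, 3 for TGACG, 1 for TATAA and 3 for GGGCGG. Of 32851 mouse promoters of the same length, also counted by start site, 1.55% held TGACGTCA, 17.8% TGACG, 22.8% TATAA and 32.7% GGGCGG. These matches describe letters only.

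Summed FPKM ranged from 470243 to 513817, and 20619 to 20840 gene IDs were above 0. Every Con library had a lower summed FPKM (470243 to 483232) than every injected library (496090 to 513817). The most abundant gene IDs held 4.50% to 6.37% of the sum in Con and 6.30% to 7.96% in injected libraries, with overlap. The difference in sums therefore runs along the comparison of injected libraries with Con. Only 1 to 8 genes per library sat near the value of a single read, and from them relative depth ranged from 0.897 to 1.06, while the absolute depth is unknown. Chrm1, Chrm3 and Chrm5 were between 0.01 and 0.43 FPKM in every library, too low to show whether the targeted RNA fell, so they do not check the labels. The markers of testis were present, with summed FPKM of 7 elongating spermatid genes from 10948 to 30932. M5 replicate 3 was the highest library in summed Sertoli (669 FPKM) and Leydig (3159 FPKM) markers, and M3 replicate 3 was nearer to M5 than to its own group in Ldhc. Values without these libraries are given where a call or a value turned on them.

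Levels of the 10 genes spanned more than 2 orders of magnitude. Ldhc, the lactate dehydrogenase of germ cells, was the most abundant, at a mean of 2662 FPKM over the 15 libraries, which ranked 6 among all gene IDs. Gapdhs, the glyceraldehyde-3-phosphate dehydrogenase of sperm, had 897 FPKM and Pgam2, a phosphoglycerate mutase, 673 FPKM. Their ranges, 467 to 1087 and 521 to 773 FPKM, overlapped. Next came Ldha, the lactate dehydrogenase of muscle and many other tissues, at 523 FPKM, Pgk2, the phosphoglycerate kinase of germ cells, at 510.0 FPKM, and Hk1, a hexokinase, at 462 FPKM. The libraries of these 3 genes overlapped as well, so their order is not fixed beyond their spread. Gapdh followed at 114 FPKM and Aldoart1 at 69.6 FPKM. Eno4, an enolase needed for sperm motility, had 18.2 FPKM and Pgk1 15.7 FPKM, again with overlapping ranges.

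Within each enzyme step a single gene often held most of the FPKM. The median share over the 15 libraries was 98.5% for Hk1 among 5 hexokinases, 97.1% for Pgk2 against Pgk1, 94.8% for Pgam2 against Pgam1, and 89.1% for Gapdhs against Gapdh. Ldhc held 72.7% of the lactate dehydrogenase FPKM, Ldha 14.2% and Ldhal6b, another testis isozyme, 11.3%. Aldolase and enolase were shared more evenly. Aldoart1 held 13.6% of aldolase FPKM beside 41.4% for the retrogene Aldoart2 and 45.5% for Aldoa, and Eno4 held 30.6% of enolase FPKM beside 52.9% for Eno3, the muscle enolase. The enolase shares differed between groups, since in MNC the median share was 43.8% for Eno1, the enolase of most tissues, 29.9% for Eno3 and 22.1% for Eno4, and Eno1 ranged from 1.83% to 71.8% over all libraries. The abundance of Pgam2 was not matched by other muscle genes, since 6 skeletal muscle markers (Acta1, Ckm, Myh4, Tnnt3, Mylpf and Mb) summed to 1.33 to 2.54 FPKM in every library.

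**Figure D1:**
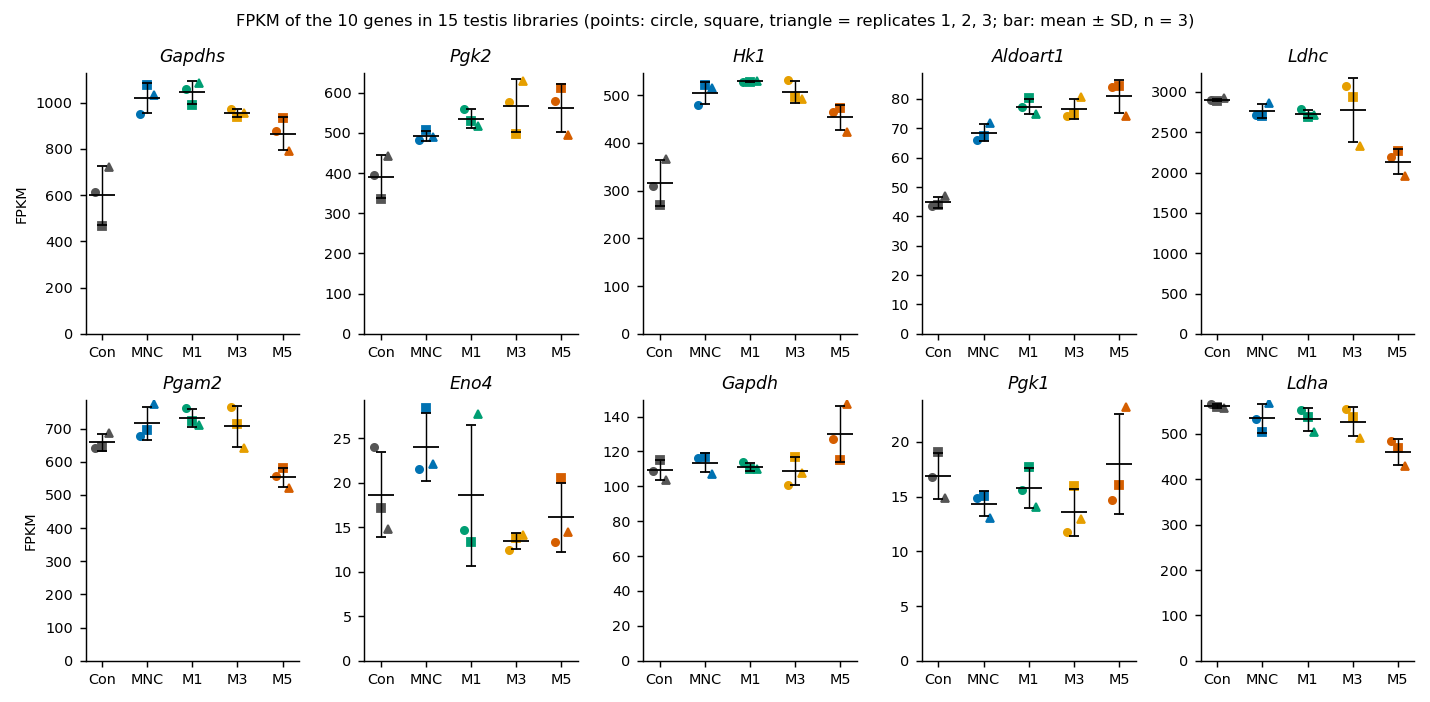
FPKM of the 10 genes (y axis, starting at 0, with its own scale in each panel) in the 5 groups (x axis); circles, squares and triangles are replicates 1, 2 and 3, and bars are the mean ± SD of 3 libraries. Gapdhs, Pgk2, Hk1 and Aldoart1 were lower in all 3 Con libraries than in all 12 injected libraries, while Ldhc, Pgam2 and Ldha were lowest in M5.

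The comparison of all injected libraries with Con asked what virus injection with any insert went along with. Gapdhs, Hk1, Aldoart1 and Pgk2 rose, by 1.38 to 1.67 times, and none of the 10 was called lower. Aldoart1, Gapdhs and Pgk2 are isozymes of germ cells that act at the aldolase, dehydrogenase and kinase steps, and Hk1 opens the pathway by phosphorylating glucose. The test was limma on log2(FPKM + 1) over 14514 genes with Benjamini-Hochberg adjustment, called at an adjusted p under 0.05, and fold changes are on that scale. The 4 calls of 10 stand beside 11.8% of all genes tested called higher and 22.4% called lower. The median log2 difference was 0.054 for the 10 genes and -0.099 for all genes tested.

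Gapdhs was at 611, 467 and 721 FPKM in the 3 Con libraries and at 789 to 1087 FPKM, median 965, in the 12 injected libraries. All injected libraries were above all Con libraries, and the log2 difference was 0.71 (SE 0.096, limma adjusted p = 0.000323). Such a separation was seen for 6.25% of all genes tested, and the opposite one for 11.5%. Hk1 was at 311, 269.6 and 366 FPKM in Con and at 423 to 533 FPKM in injected libraries. Again the groups did not overlap, with a log2 difference of 0.67 (SE 0.070, limma adjusted p = 0.000107).

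Aldoart1 was the most even of the 4 within Con, at 43.6, 43.8 and 46.9 FPKM, and the injected libraries lay between 66.2 and 84.3 FPKM. Its log2 difference was 0.74 (SE 0.048, limma adjusted p = 1.63e-05). Pgk2 was at 394, 336 and 443 FPKM in Con and at 482 to 628 FPKM in injected libraries, a log2 difference of 0.47 (SE 0.085, limma adjusted p = 0.00173). These 4 calls held in each of the 21 alternatives run, which included leaving out each of the 15 libraries in turn.

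The other 6 genes did not pass. Ldhc was at 2896, 2888 and 2920 FPKM in Con and at 1959 to 3070 FPKM in injected libraries, a log2 difference of -0.17 (SE 0.071, limma adjusted p = 0.0829), and without M3 replicate 1 or without M3 replicate 3 it was called lower (adjusted p = 0.0476 and 0.0367). Ldha had -0.13 (SE 0.051, limma adjusted p = 0.0654). After quantile normalization both were called lower by limma, Ldhc at -0.68 (adjusted p = 0.00973) and Ldha at -0.24 (adjusted p = 0.00470), and after centring on the median Gapdh was called higher at 0.18 (adjusted p = 0.0161). Gapdh, Pgk1, Pgam2 and Eno4 had log2 differences between -0.14 and 0.079, and the Con and injected libraries of each overlapped.

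Markers of spermatids moved with the 4 genes. All 7 elongating spermatid genes (Tnp1, Tnp2, Prm1, Prm2, Odf1, Akap4 and Oaz3) were higher in injected libraries and 6 were called, with a median log2 difference of 0.71, and the 7 summed to 10948 to 21371 FPKM in Con and 22013 to 30932 FPKM in injected libraries. All 6 round spermatid genes were higher and 4 were called, with a median of 0.23. All 7 spermatocyte genes were lower and 4 were called, with a median of -0.20. Within Con, the elongating spermatid sum was 16051, 10948 and 21371 FPKM in replicates 1, 2 and 3, the same order in which Gapdhs, Hk1 and Pgk2 lay in these libraries. Aldoart1 did not lie in that order, at 43.6, 43.8 and 46.9 FPKM. Markers of other cells moved as well. All 5 smooth muscle and myoid genes were lower in injected libraries and 3 were called, with sums of 45.4 to 50.1 FPKM in Con and 28.9 to 48.8 FPKM in injected libraries. Of 5 red blood cell genes 2 were called higher, with sums of 33.7 to 69.8 FPKM in Con and 21.8 to 491 FPKM in injected libraries. Of 2 epididymis genes tested 1 was called lower, Crisp1, at 32.3, 2.86 and 12.2 FPKM in Con, 0.030 FPKM in each MNC library and 19.4, 5.03 and 0.68 FPKM in M3. The part of cell composition in the differences was not tested, and since Con's age is not given, age and injection cannot be told apart.

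The comparison of MNC with Con uses the vector control only. Gapdhs, Hk1 and Aldoart1 rose, and none of the 10 fell, beside 8.03% of all genes called higher and 12.4% called lower. Gapdhs had a mean of 1020 ± 65.4 FPKM in MNC and 599.6 ± 127 in Con (SD, n = 3 each), a log2 difference of 0.79 (SE 0.16, limma adjusted p = 0.0268). Hk1 had 505 ± 22.9 FPKM in MNC and 315 ± 48.4 in Con, a difference of 0.69 (SE 0.11, limma adjusted p = 0.0205). Aldoart1 had 68.5 ± 2.92 FPKM in MNC and 44.8 ± 1.84 in Con, a difference of 0.60 (SE 0.053, limma adjusted p = 0.0107). Pgk2 had a difference of 0.34 (SE 0.10, limma adjusted p = 0.0579) and was not called. Its 3 MNC libraries were above its 3 Con libraries. Such a separation was seen for 14.96% of all genes tested, and the opposite one for 31.5%. With 3 libraries a group these calls were not kept in every fit with 1 library left out. No member was called without Con replicate 1, 1 without Con replicate 2, without MNC replicate 2 or without MNC replicate 3, 3 without MNC replicate 1, and 4, with Pgk2 added, without Con replicate 3. The share of all genes called in these fits is not given here, so the counts are not read as results about the members. Log2 differences without Con replicate 1 were 0.81 for Gapdhs, 0.68 for Hk1 and 0.58 for Aldoart1. With no filter on low values Gapdhs was not called by limma (adjusted p = 0.0574), and with all 5 groups in one fit Pgk2 was (adjusted p = 0.0399).

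The same markers moved in MNC against Con. All 6 round spermatid genes were higher and 4 were called, and all 7 elongating spermatid genes were higher and 2 were called, Odf1 and Oaz3. All 7 spermatocyte genes were lower and 5 were called, and all 5 smooth muscle and myoid genes were lower and 2 were called. Crisp1 fell by 3.53 on the log2 scale, and 1 of 5 red blood cell genes was called lower. Their part in the differences was not tested.

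**Figure D2:**
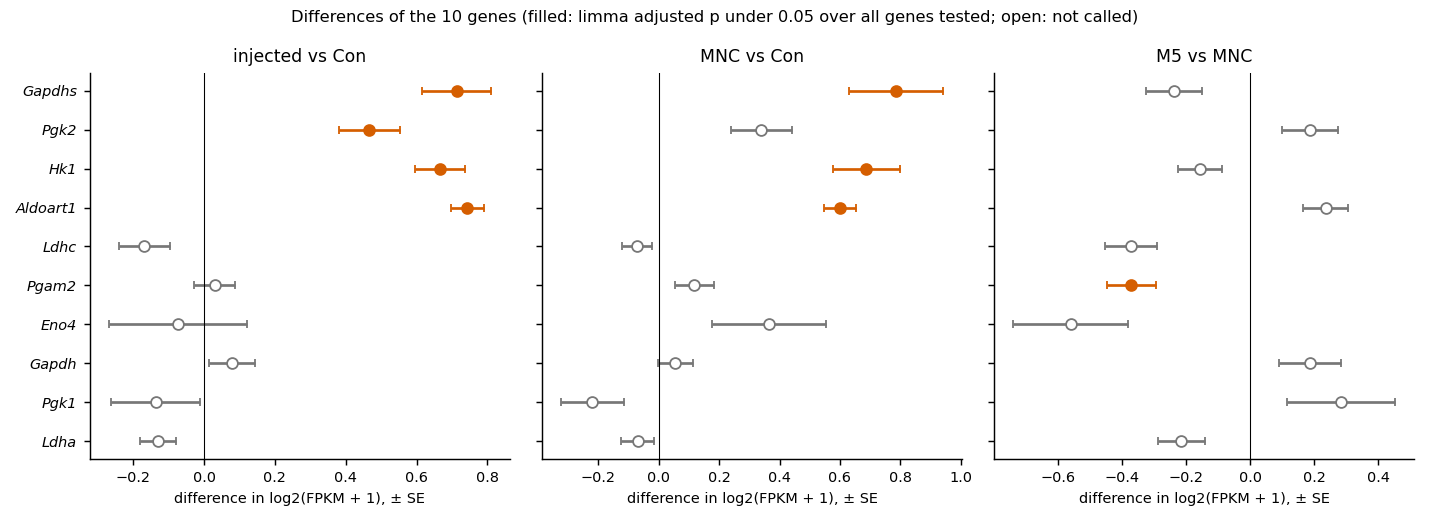
Difference in log2(FPKM + 1) (x axis, point ± SE) of the 10 genes (y axis) for all injected libraries against Con, MNC against Con and M5 against MNC; filled points passed limma at an adjusted p under 0.05. Gapdhs, Hk1 and Aldoart1 were called higher in the first and second panels and Pgk2 in the first, and Pgam2 was the gene called in the third.

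The comparison of M5 with MNC addresses the knockdown of Chrm5. Pgam2, which interconverts 3- and 2-phosphoglycerate, fell to 0.77 times the MNC level and was the 1 gene of 10 called, beside 2.89% of all genes called lower and 2.76% called higher. The M5 libraries held 557, 580.2 and 521 FPKM of Pgam2 and the MNC libraries 679, 694 and 773 FPKM. Every M5 library was below every MNC library, with a log2 difference of -0.37 (SE 0.076, limma adjusted p = 0.0444). Of all genes tested, 15.5% lay wholly lower in M5 than in MNC and 16.6% wholly higher. The call was lost without each of the 6 libraries in turn, at adjusted p from 0.0543 to 0.145, while the log2 difference stayed between -0.41 and -0.31.

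For Ldhc the M5 libraries held 2188, 2263 and 1959 FPKM and the MNC libraries 2719, 2704 and 2859 FPKM. These libraries did not overlap either, and the log2 difference was -0.37 (SE 0.083), but the limma adjusted p of 0.0522 missed the threshold. Without M5 replicate 3, Ldhc was called lower (adjusted p = 0.0305), as Pgk2 and Aldoart1 were called higher (0.0414 and 0.0458), and Pgam2 was not. Ldha had a log2 difference of -0.21 (SE 0.074, adjusted p = 0.138), Gapdhs -0.24 (SE 0.087, adjusted p = 0.156) and Eno4 -0.56 (SE 0.18, adjusted p = 0.116) by limma. In all, 6 of the 10 genes had an unadjusted p under 0.05, as did 24.9% of all genes tested.

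Pgk2, Aldoart1, Gapdh and Pgk1 lay on the other side, and none of the 4 was called. Aldoart1 was at 84.0, 84.3 and 74.3 FPKM in M5 and 66.2, 67.5 and 71.7 FPKM in MNC, without overlap, a log2 difference of 0.24 (SE 0.070, limma adjusted p = 0.102). Pgk2 was at 579.6, 612 and 496 FPKM in M5 and 482, 507 and 489 FPKM in MNC, a difference of 0.19 (SE 0.087, limma adjusted p = 0.246). M5 replicate 3 overlapped MNC for Pgk2, and the remaining M5 libraries were above it. The somatic partners Gapdh and Pgk1 were higher by 0.19 (SE 0.096, limma adjusted p = 0.285) and 0.28 (SE 0.17, adjusted p = 0.349), and without M5 replicate 3 by 0.094 and 0.095.

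Red blood cell and spermatocyte markers moved in the same comparison. All 5 red blood cell genes were higher in M5 and 3 were called, and they summed to 148 to 491 FPKM in M5 and 21.8 to 35.3 FPKM in MNC. Of 7 spermatocyte genes 6 were higher and 2 were called, and they summed to 446 to 471 FPKM in M5 and 336 to 364 FPKM in MNC. The elongating spermatid sum overlapped, at 22013 to 30932 FPKM in M5 and 22373 to 28546 in MNC, but its members moved apart. Of the 7 genes 4 were higher in M5 without a call, and 3 were lower with no overlap between the groups, namely Odf1 (log2 difference -0.51, limma adjusted p = 0.0337), Tnp2 (-0.70, adjusted p = 0.0584) and Oaz3 (-0.27, adjusted p = 0.159). The 6 round spermatid genes summed to 1011 to 1056 FPKM in M5 and 1110 to 1140 FPKM in MNC. Of these 4 were lower, 3 of them without overlap, and 1 was called, Spaca7, which was higher. Over all genes tested, 15.5% were lower without overlap and 16.6% were higher without overlap. The part of these markers in the differences of Pgam2 and Ldhc was not tested.

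Against M1, M5 gave the same 1 call. Pgam2 was at 761, 723 and 712 FPKM in M1, above every M5 library. Of all genes tested, 14.97% lay wholly lower in M5 than in M1 and 18.8% wholly higher. Pgam2 fell by 0.41 on the log2 scale in M5 (SE 0.063, limma adjusted p = 0.0212), beside 3.52% of all genes called lower and 3.23% higher. This call held without M5 replicate 3 (adjusted p = 0.0173) and was lost without each of the other 5 libraries (0.0578 to 0.107). Ldhc was at 2786, 2696 and 2712 FPKM in M1, a difference of -0.36 (SE 0.082, limma adjusted p = 0.0523), and was called without M5 replicate 3 (adjusted p = 0.0173). Both comparisons use the M5 libraries, so their values are not independent of each other. All 7 spermatocyte genes were higher in M5 than in M1 and 2 were called, and all 5 red blood cell genes were higher and 1 was called. Of the elongating spermatid genes 2 were called lower, Odf1 and Tnp2, and of the round spermatid genes 1 was called higher, Spaca7, and 1 lower, Acrv1. Their part in these differences was not tested.

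Against M3 no member was called by limma, beside 0.0138% of all genes called higher and 0% lower, and 2 of the 10 had an unadjusted p under 0.05 as did 2077 of the 14514 genes. Pgam2 had a log2 difference of -0.35 (SE 0.091, adjusted p = 0.338) and Ldhc of -0.37 (SE 0.14, adjusted p = 0.338). M3 replicate 3 was nearest to M5 of the M3 libraries, with Pgam2 at 642 FPKM against 765 and 714, and Ldhc at 2330 FPKM against 3070 and 2934. Without it, the difference of Ldhc was -0.49, the widest of the values with 1 library left out.

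M1 and M3 were each compared with MNC, and the 2 comparisons share the MNC libraries. No member was called in either by limma. For M1 the shares of all genes called were 0% higher and 0% lower, with 862 genes of 14514 at an unadjusted p under 0.05, and for M3 they were 0% higher and 0.00689% lower, with 1369 such genes. In M1, Aldoart1 had a log2 difference of 0.18 (SE 0.049, adjusted p = 0.819) and Pgk2 of 0.12 (SE 0.044, adjusted p = 0.819), and the libraries of each did not overlap with MNC. Of all genes tested, 5.04% lay wholly higher in M1 than in MNC and 6.97% wholly lower. In M3, Aldoart1 had 0.16 (SE 0.062, adjusted p = 0.518) and Eno4, at 12.5, 13.8 and 14.2 FPKM against 21.6, 28.4 and 22.1 in MNC, had -0.78 (SE 0.12, adjusted p = 0.395). Eno4 also spread widely within groups, from 13.3 to 27.8 FPKM in M1.

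Ratios of a germ cell isozyme to its somatic partner were taken within each library, as log2 of the quotient of FPKM + 1, and tested by an exact two-sided permutation test with Benjamini-Hochberg adjustment over the 5 pairs. For injected libraries against Con, this test treats the 12 injected libraries as 1 group, unlike the limma fit, which keeps a mean for each group. The injected groups were not alike, since the mean log2 ratio of Gapdhs over Gapdh was 2.73 in M5 and 3.16 in MNC. In injected libraries against Con, 3 of the 5 ratios were higher. Aldoart1 over Aldoa was 0.22 to 0.25 in Con and 0.27 to 0.35 in injected libraries, without overlap (log2 difference 0.40, exact permutation p = 0.00220, adjusted p = 0.0110, n = 3 and 12). Gapdhs over Gapdh was 5.59, 4.03 and 6.90 in Con and 5.34 to 9.83 in injected libraries (log2 difference 0.63, exact permutation p = 0.0110, adjusted p = 0.0220). Pgk2 over Pgk1 was 22.2, 16.8 and 28.0 in Con and 20.5 to 45.3 in injected libraries (log2 difference 0.60, exact permutation p = 0.0132, adjusted p = 0.0220). The injected library that reached lowest for both Gapdhs over Gapdh and Pgk2 over Pgk1 was M5 replicate 3. Without Con replicate 2, the differences were 0.43 (adjusted exact permutation p = 0.137) and 0.41 (adjusted p = 0.165), and that of Aldoart1 over Aldoa was 0.40 (adjusted p = 0.0550). Without Con replicate 1 all 3 ratios had an adjusted exact permutation p of 0.0550. With 2 Con libraries the smallest exact p is 0.0110, so a ratio that reaches it alone cannot have an adjusted p under 0.0550, and for Aldoart1 over Aldoa the lost call follows from the number of libraries.

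Ldhc over Ldha differed from the other pairs in its narrow range, 4.51 to 5.53 over all 15 libraries. It was 5.11, 5.16 and 5.23 in Con and had a median of 5.03 in injected libraries, a log2 difference of -0.039 (exact permutation p = 0.519). In M5 it was 4.51, 4.81 and 4.56, below the 5.09, 5.36 and 5.03 of MNC, at an exact permutation p of 0.1, the smallest that 3 against 3 libraries allow. Gapdhs over Gapdh had a log2 difference of -0.42 in M5 against MNC, also at the smallest p of 0.1, and of -0.26 without M5 replicate 3. Pgk2 over Pgk1 differed by -0.098 (exact permutation p = 1), turning to 0.18 without M5 replicate 3. In MNC against Con, Gapdhs over Gapdh, Pgk2 over Pgk1 and Aldoart1 over Aldoa differed by 0.73, 0.56 and 0.26 on the log2 scale, each at that smallest p.

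Eno4 over Eno1 ranged from 0.17 to 8.93 in injected libraries and from 4.17 to 7.59 in Con (log2 difference -1.80, exact permutation p = 0.134). Its swings came with Eno1, which was at 2.30 to 2.79 FPKM in Con, 129, 10.04 and 43.95 FPKM in MNC and 3.52, 4.34 and 0.70 FPKM in M3. In MNC against Con the ratio differed by -3.16 on the log2 scale (exact permutation p = 0.1), with an SD of 1.98 within MNC.

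**Figure D3:**
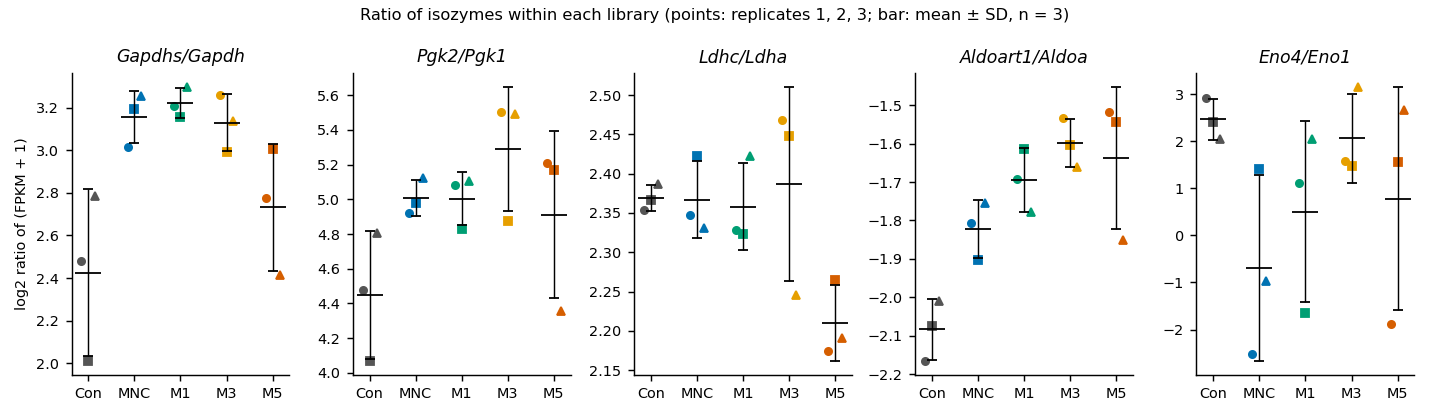
Log2 ratio of FPKM + 1 of a germ cell isozyme to its somatic partner within each library (y axis, own scale per panel) by group (x axis); circles, squares and triangles are replicates 1, 2 and 3 and bars are the mean ± SD of 3 libraries. The Con libraries sit lowest for Aldoart1/Aldoa, M5 lies below Con and MNC for Ldhc/Ldha, and Eno4/Eno1 spreads over several log2 units within MNC, M1 and M5.

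The rest of the pathway was read from a list of 36 further genes of glycolysis, lactate and glucose transport and pyruvate use, of which 30 were tested. In injected libraries against Con, 6 rose and 8 fell, beside 11.8% of all genes called higher and 22.4% lower, and the median of the 30 was -0.15, beside -0.099 for all genes. Among the risen genes were Gpi1, Tpi1, Pkm, Aldoart2 and Aldoa, all enzymes of the pathway itself. Gpi1, glucose-6-phosphate isomerase, had 198 ± 17.2 FPKM in injected libraries (SD, n = 12) and 134 ± 30.6 in Con (n = 3), a log2 difference of 0.57 (SE 0.098, limma adjusted p = 0.00121). Tpi1, triosephosphate isomerase, had a difference of 0.43 (SE 0.043) and Pkm, a pyruvate kinase, of 0.39 (SE 0.064). The largest falls were those of Slc2a8 and Slc2a3, glucose transporters found in germ cells, at -0.43 (SE 0.073) and -0.37 (SE 0.094), then Eno3 at -0.32 (SE 0.068), the phosphofructokinase Pfkp at -0.29 (SE 0.051) and the lactate transporter Slc16a1 at -0.27 (SE 0.089). Slc2a3 was not called without Con replicate 3 (adjusted p = 0.0527), and Slc16a1 not without any 1 of the Con libraries (0.0849 to 0.108) or without M1 replicate 3 (0.0510). Without M5 replicate 3 the counts were 6 risen and 14 fallen. The share of all genes called in that fit is not given here, so these counts are not read as a result about the list.

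In MNC against Con, 8 of the 30 rose and 2 fell, beside 8.03% of all genes called higher and 12.4% lower. Among those with the largest rise were Eno1 (log2 difference 3.52, SE 0.82, which rests on the 3 uneven MNC values above), Gpi1 (0.64, SE 0.16), Tpi1 (0.48, SE 0.064) and Aldoart2 (0.45, SE 0.062), and the phosphofructokinases Pfkl (-0.39, SE 0.070) and Pfkp (-0.30, SE 0.059) fell. Without Con replicate 1 none was called, and without Con replicate 2 only 1, but the share of all genes called in these fits is not given here. In M5 against MNC, Slc2a8 (-0.46, SE 0.075, limma adjusted p = 0.0289) and Aldoart2 (-0.26, SE 0.050, adjusted p = 0.0400) fell and none rose. In M5 against M1, Gpi1 (-0.27, SE 0.058, limma adjusted p = 0.0444) and Aldoart2 (-0.25, SE 0.046, adjusted p = 0.0327) fell. Both pairs of calls were lost without each library other than M5 replicate 3. None of the 30 was called by limma in M1 against MNC, in M3 against MNC or in M5 against M3, where 3, 8 and 4 had an unadjusted p under 0.05.

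**Figure D4:**
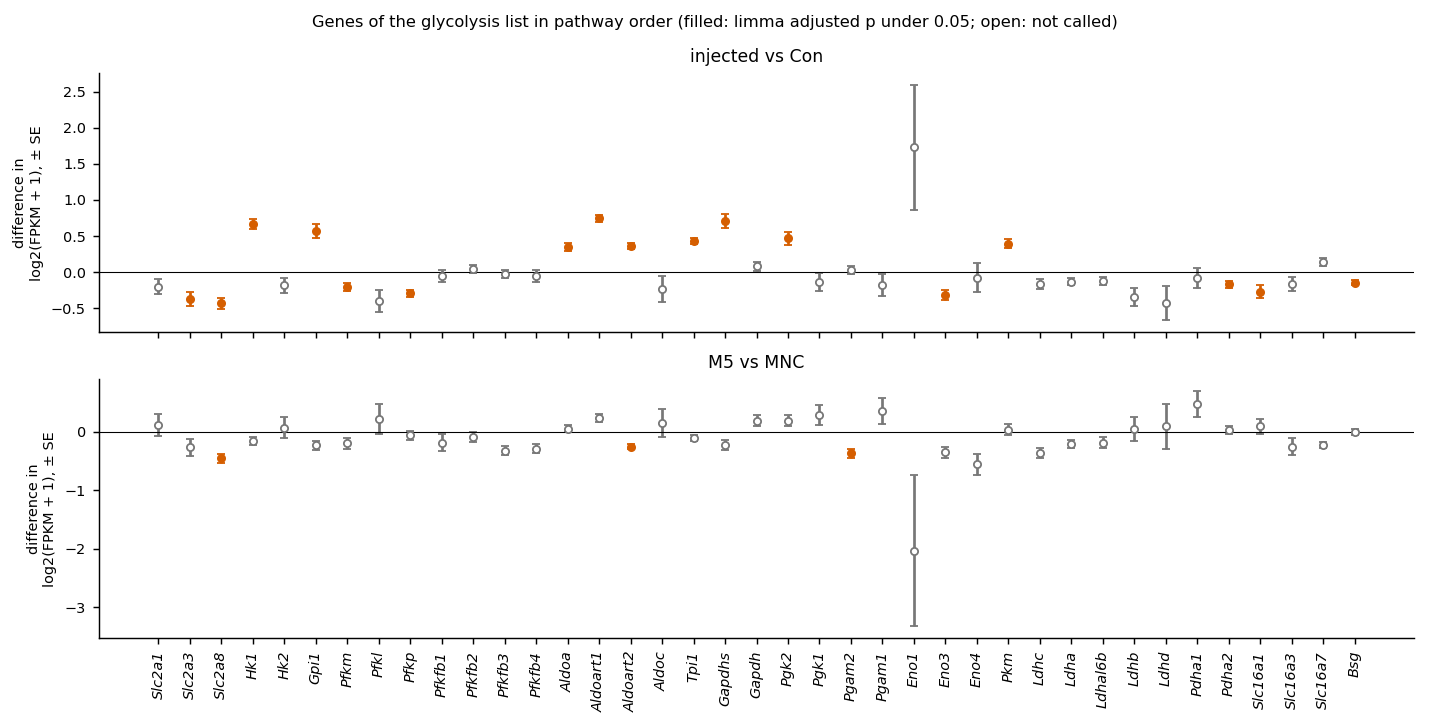
Difference in log2(FPKM + 1) ± SE (y axis) of tested genes of the list, the 10 members included, in pathway order (x axis) for all injected libraries against Con and M5 against MNC; filled points passed limma at an adjusted p under 0.05. Filled points above 0 lie from Hk1 to Pkm in the upper panel, and 3 points, Slc2a8, Aldoart2 and Pgam2, are filled in the lower panel.

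Within the set, 2 patterns across the 15 libraries stood out by Pearson's r of log2(FPKM + 1), given as a description since the libraries fall into groups. Gapdhs followed Hk1 (r = 0.98), and Pgk2 followed Aldoart1 (r = 0.90) and Hk1 (r = 0.83). Ldhc followed Ldha (r = 0.93) and Pgam2 (r = 0.85), and was unrelated in direction to Gapdhs (r = -0.086). Of all named genes tested, those most like Gapdhs were Fam71f2 (r = 0.996), 4933411K16Rik (r = 0.992) and Spem1 (r = 0.991). Those most like Pgk2 were Odf2 (r = 0.98), a gene of the outer dense fibres, Ttc39d (r = 0.98) and Fxr1 (r = 0.97), and those most like Aldoart1 were Bcl2l14 (r = 0.99), Arl13a (r = 0.98) and Pmfbp1 (r = 0.97). Ropn1l (r = 0.98), Gm21409 (r = 0.96) and Dcaf12 (r = 0.96) were most like Ldhc. Eno4 had looser matches, Spdef (r = 0.87), Elmo3 (r = 0.75) and Srprb (r = 0.74).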

How the data were processed

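Poly(A) RNA of 15 testis libraries was sequenced on an Illumina HiSeq, and the methods name SOAPaligner v. 2.20. The submitters' processing notes name mm10, and the annotation is not given in the sources used here. The authors deposited a single table of FPKM to 2 decimals for 23510 gene IDs, with no counts, so the depth of each library is unknown and the study's read-number test could not be used. The extraction text in the labels speaks of sperm, whereas titles and tissue say testis. Groups and replicate numbers come from the titles, since 1 description, that of the M5 library titled 2, points to a different column. Gene IDs were matched to RefSeq symbols (21143 matched, 2208 were the submitters' own predicted genes and 159 others did not match).

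Values were tested as log2(FPKM + 1) with limma 3.58.1 in R 4.3.3 (lmFit, eBayes with trend) on genes with mean FPKM of at least 1, Benjamini-Hochberg over 14514 genes and called at adjusted p under 0.05, with the groups of a comparison in its fit, and with 5 group means over all libraries for injected against Con. The fits were tested on simulated data with known changes. Exact permutation tests went through every split of the libraries, in Python 3.11.15 with numpy 2.4.6. Alternatives were a pseudocount of 0.1, no filter, median centring, quantile normalization, a replicate block, a fit over all 5 groups (for injected against Con, 2 means) and each library left out. The 10 genes are all named. Other glycolysis genes are named when called, at most the 5 largest each way per comparison, and for 5 germ cell isozymes the 3 genes of highest r. Marker genes named singly were chosen after their values were seen. A gene of the list is not reported here. The members and lists were chosen with earlier results of these data known.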

Additional observations from a re-analysis of the deposited data

Results flagged for a closer look

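Differences in response between knockdowns were called for 3 genes. Against the shared vector control, M5 and M1 differed for Pgam2 (log2 difference between them -0.41), Gpi1 (-0.27) and Aldoart2 (-0.25). By limma over M5 and M1 the adjusted p was 0.0212, 0.0444 and 0.0327. For each gene all 3 M5 libraries lay below all 3 M1 libraries. Such a separation was seen for 14.97% of all genes tested, and the opposite one for 18.8%, so it does not mark out these genes. Pgam2 also lay above every Con library in all M1 libraries and below every Con library in all M5 libraries, with means 179 FPKM apart. The share of all genes placed so against Con is not given here, so this placement is not read as a result about Pgam2. The difference between M5 and M1 is the one tested above. Hk1 likewise lay above every MNC library in M1 and below every MNC library in M5, with means 75.6 FPKM apart. Taken singly, 5.04% of all genes tested lay wholly higher in M1 than in MNC, and 15.5% wholly lower in M5 than in MNC. For Hk1 the difference between M5 and M1 (-0.22 on the log2 scale) missed the threshold by limma (adjusted p = 0.0733), as did M5 against MNC (-0.16, adjusted p = 0.217) and M1 against MNC (0.067, adjusted p = 0.833).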

How the results depend on the processing

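The 4 calls of injected against Con (Gapdhs, Hk1, Aldoart1 and Pgk2) and their direction held in each of the 21 alternatives, and 4 to 5 members were called with 1 library left out. The calls with 3 libraries a group did not hold as widely. In MNC against Con the 3 members called became 2 with no filter, where Gapdhs was lost, and 4 with all 5 groups in one fit, where Pgk2 was gained. With M5 against MNC, 1 member called became 2 with a pseudocount of 0.1, 0 with no filter, 0 after centring on the median, 3 after quantile normalization and 4 with all 5 groups in one fit. With M5 against M1, 1 became 2, 1, 0, 4 and 2 in the same order. Among the other glycolysis genes, the 10 called in MNC against Con became 5 with no filter, the 2 called in M5 against MNC became 0 after centring, 4 after quantile normalization and 5 in the fit of all groups, the 2 of M5 against M1 became 1 with no filter and 0 after centring, and the 14 of injected against Con became 9 (7 higher, 2 lower) after centring. Counts that fell with fewer libraries had fewer samples in the fit, and for the other settings the cause was not tested. The share of all genes called is not given here for each setting or left-out library. These counts are therefore not read as results about the members. The table has no read counts, so how far depth limits the low genes is unknown.

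The replicate numbers are shared between groups but did not pair the libraries. Of 30 same-number pairs, 5 had deviations from the group means correlated at r over 0.1 (range -0.40 to 0.19), against 13 of 60 pairs of different numbers. With a replicate block, 0 members and 0 other genes were called in MNC against Con, M5 against MNC and M5 against M1. In these comparisons 5, 5 and 5 members had an unadjusted p under 0.05 by limma with the block. The share of all genes tested under that p is not given here for the block. Without the block it was 40.1%, 24.9% and 25.4%, so these counts are not read as results about the members. In injected against Con, 4 members stayed called with the block.

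With each library left out in turn, members called ranged from 0 to 4 in MNC against Con, 0 to 3 in M5 against MNC and 0 to 3 in M5 against M1, and other genes called from 0 to 7, 0 to 3 and 0 to 2, and from 10 to 20 in injected against Con. For the ratios in injected against Con, the log2 differences ranged from 0.43 to 0.81 for Gapdhs over Gapdh, 0.41 to 0.78 for Pgk2 over Pgk1 and 0.35 to 0.43 for Aldoart1 over Aldoa. In MNC against Con, Ldhc over Ldha ranged from -0.030 to 0.016, and in M5 against MNC, Pgk2 over Pgk1 ranged from -0.25 to 0.18 and Gapdhs over Gapdh from -0.56 to -0.26. Uncalled differences of single genes that changed sign ranged, in M1 against MNC, from -0.014 to 0.078 for Gapdhs, -0.030 to 0.010 for Ldhc, -0.049 to 0.037 for Ldha and -0.0019 to 0.092 for Pgam2. In M3 against MNC they ranged from -0.078 to 0.12 for Ldhc, -0.064 to 0.030 for Ldha, -0.20 to 0.0095 for Pgk1, -0.076 to 0.050 for Pgam2 and -0.033 to 0.027 for Hk1. They ranged from -0.031 to 0.28 for Pgk1 and -0.34 to 0.17 for Eno4 in M5 against M1, from -0.10 to 0.075 for Pgk2 in M5 against M3, and from -0.22 to 0.11 for Eno4 in injected against Con.

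Scaling turned the sign of some further uncalled differences, all small. Centring gave Ldhc 0.018 and Ldha 0.020 in MNC against Con, Gapdh 0.0041, Ldhc 0.017 and Ldha 0.026 in M1 against MNC, Gapdh 0.0019, Ldhc 0.065, Ldha 0.045 and Pgam2 0.048 in M3 against MNC, Pgk2 -0.0048 and Aldoart1 -0.0092 in M5 against M1, Aldoart1 -0.027 in M5 against M3, and Eno4 0.031 in injected against Con. Quantile normalization gave Gapdh -0.025 and Pgam2 -0.0016 in MNC against Con, Hk1 -0.056 in M3 against MNC, Gapdhs 0.016 and Pgk2 0.013 in M5 against M3, and Gapdh -0.015 and Pgam2 -0.079 in injected against Con.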
